A study of Arabidopsis thaliana with 18 samples.

Results

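GASA7, GASA8, GASA9 and GASA10 belong to the GASA family (Gibberellic Acid Stimulated in Arabidopsis), and the 4 probe sets that measure them were followed across the 18 arrays of the series. The members share a family name, and they were chosen with earlier results of these data known. They are 4 of 22810 probe sets on the Affymetrix ATH1 array, which is hybridised with labelled cRNA. The platform annotation lists them by locus, and the GASA names follow the family's numbering: GASA7 is AT2G14900 on chromosome 2, GASA8 is AT2G39540 on chromosome 2, GASA9 is AT1G22690 on chromosome 1 and GASA10 is AT5G59845 on chromosome 5. Of 15 family genes searched for, GASA11 (AT2G18420) and GASA12 (AT2G30810) were the other ones with a probe set named for a single gene. Both were too dim to test, at 2.7 to 15.3 and 2 to 16.8 units over the arrays. The remaining family genes had no such probe set in the annotation used, and are not analysed here.

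GASA genes encode small secreted peptides with a signal sequence and a conserved cysteine-rich domain at the carboxyl end. The family was first recognised through a tomato gene, GAST1, whose transcript rises after gibberellin treatment. Gibberellins such as GA4 bind GID1 receptors, which lead DELLA repressors to degradation through the F-box protein SLY1. Some Arabidopsis GASA transcripts are known to rise and others to fall after gibberellin, and members act in growth, flowering, seed germination and stress responses. Ethylene is known to slow the removal of DELLA proteins, so the 2 hormone pathways meet at that point.

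RNA came from whole Arabidopsis thaliana plants aged 14 days, of the wild type Col-0 or of etr1-1, a line with a dominant allele of an ethylene receptor that makes plants insensitive to ethylene. Plants of each genotype were sampled after water at 0 h, after GA4 dissolved in water at 30 min, after water at 1 h, after GA4 at 1 h and after GA4 at 3 h. The 4 groups at 1 h had 3 arrays each and the other 6 groups had 1 array each, so no water control stands beside the arrays at 30 min and 3 h. The labels do not say whether replicates were separate plants or cultures, and p-values therefore measure the spread between these arrays, which may be technical.

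The array titles begin with DV001 or DV002, with no statement of what the prefix stands for, and some DV001 titles also carry the word repeat. DV001 held 10 arrays, 1 of each group, and DV002 held the 8 arrays with replicate numbers 1 and 2 at 1 h. Within DV001 the arrays at 1 h carry replicate number 3 and those at other times number 1. At 1 h, 18.9% of the 15922 probe sets tested differed between the prefixes, so the prefix is given beside each result that it touches. Green tissue and root transcripts were both present, as the label whole plant says. The photosynthetic antenna gene LHCB4.1 read 2603.3 to 3671.1 units and the Rubisco activase gene RCA 2147.7 to 3330.5. The root genes PYK10 and EXPA7 read 2260.5 to 2933.7 and 34.5 to 75.2 units. These were the 2 of 8 green and 2 of 8 root markers with a named probe set, and none of the 4 differed between the genotypes over the 18 arrays in limma.

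The members differed in how bright their probe sets were. Over the 18 arrays the intensity of GASA7 ran from 154.6 to 279.6 units (median 197.25), that of GASA8 from 11.8 to 28.0 (median 22.5), that of GASA9 from 323.6 to 798.4 (median 550.4) and that of GASA10 from 18.7 to 49.4 (median 33.7). These are separate probe sets, so the ranges describe each signal and do not rank the transcripts against each other. All 4 passed the filter on low values. GASA8 passed it by 0.06 on the log2 scale and GASA10 by 0.42, so both sit at the dim end of what was tested.

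**Figure D1:**
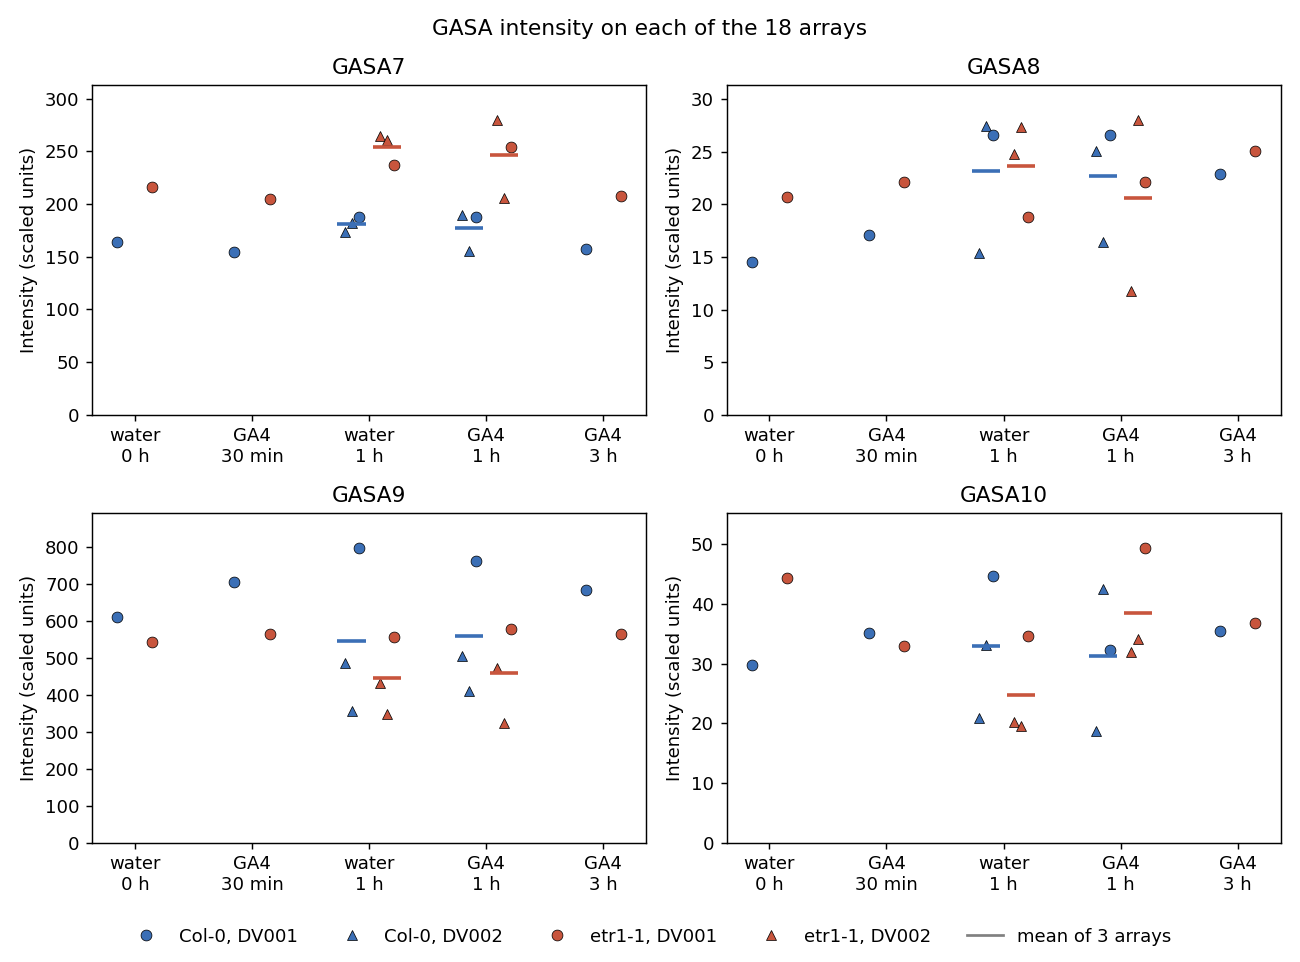
Intensity in scaled units (vertical axes, from 0) of each GASA probe set on each of the 18 arrays, by spray and time. Points are arrays, blue for Col-0 and red for etr1-1, circles for DV001 and triangles for DV002, and lines are means of 3 arrays. GASA7 is higher in etr1-1 at every time, and GASA9 is lower on the DV002 arrays than on the DV001 arrays at 1 h.

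GASA7 differed between the genotypes with and without the array pairs as a block, while GASA9, described after it, passed only with a block or in DV001 alone. GASA7 was higher in etr1-1 than in Col-0 under all 5 spray and time conditions, and no etr1-1 array read as low as any Col-0 array. In Col-0 the probe set read 164.4 units after water at 0 h, 154.6 after GA4 at 30 min and 157.3 after GA4 at 3 h. At 1 h in Col-0 it read 173.2, 181.8 and 187.8 units after water and 189.4, 155.7 and 187.7 after GA4, for replicates 1, 2 and 3. These 9 values span 1.23-fold from lowest to highest.

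In etr1-1 GASA7 read 215.8 units after water at 0 h, 205.1 after GA4 at 30 min and 207.6 after GA4 at 3 h. At 1 h in etr1-1 it read 264.7, 260.9 and 236.9 units after water and 279.6, 206.1 and 254.5 after GA4. The lowest etr1-1 array (205.1, at 30 min) thus lay above the highest Col-0 array (189.4, at 1 h). Over the 5 conditions the mean of the 9 arrays was 237 ± 29.0 units for etr1-1 and 172 ± 14.7 for Col-0 (SD). Such a complete separation of the 9 arrays of each genotype, with etr1-1 above, held for 62 of the 15922 probe sets tested, which is 0.389%. Because the samples are bulk tissue, a change in the share of cells that express the gene and a change in RNA per cell cannot be told apart.

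In a fit of genotype and condition to the 18 arrays, GASA7 was 1.34-fold higher in etr1-1 on the scale of log2(intensity + 16), a log2 difference of 0.42 ± 0.06 (SE, 95% interval 0.29 to 0.55, limma, Benjamini-Hochberg adjusted p = 3.51e-04, or 1.52e-05 with the array pairs as a block). It was the 1 member of 4 that passed the adjusted p threshold of 0.05, against 6.61% of all tested probe sets, of which 3.28% were higher and 3.34% lower in etr1-1. The medians of the log2 difference were 0.04 over the members and 0.01 over all tested probe sets. When each of the 18 arrays was left out in turn, GASA7 passed in 18 of 18 fits, with log2 differences of 0.39 to 0.45.

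Each etr1-1 array has a Col-0 array of the same condition and replicate number, which gives 9 pairs. GASA7 was higher in etr1-1 in 9 of 9 pairs, by 0.31 to 0.57 on the log2 scale (SD between pairs 0.09). All 9 pairs pointed up for 3.91% of tested probe sets. The smallest difference was 49.1 units, in the third replicate at 1 h after water, and the largest 91.5 units, in the first. In DV001 alone (10 arrays) the difference was 0.36 ± 0.06 (adjusted p = 0.00302), and in DV002 alone (8 arrays, all at 1 h) it was 0.49 ± 0.11 and missed the threshold (adjusted p = 0.0646). The DV002 value was added after seeing the data, and 0.465% of probe sets were called higher there against 4.19% in DV001 (in either direction 1.11% and 8.31%). On the DV001 arrays the 3′ to 5′ log2 ratios of control probe sets, a measure of RNA integrity, overlapped in range between the genotypes. Their medians were not all alike. A positive log2 ratio means a 3′ signal above the 5′ signal. The GAPDH log2 ratio ran from 0.188 to 0.339 in Col-0 (median 0.209) and from 0.248 to 0.524 in etr1-1 (median 0.374). In the same order, the actin log2 ratio ran from 1.42 to 2.70 and from 1.68 to 2.64 (medians 2.45 and 1.82). The ubiquitin log2 ratio ran from 1.25 to 1.75 and from 1.37 to 1.54 (medians 1.57 and 1.51). On the DV002 arrays the medians in Col-0 and etr1-1 were 0.448 and 0.427 for GAPDH and 2.58 and 2.53 for actin. For ubiquitin they were 1.41 and 1.65. The part of these log2 ratios in the differences of GASA7 and GASA9 was not tested.

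**Figure D2:**
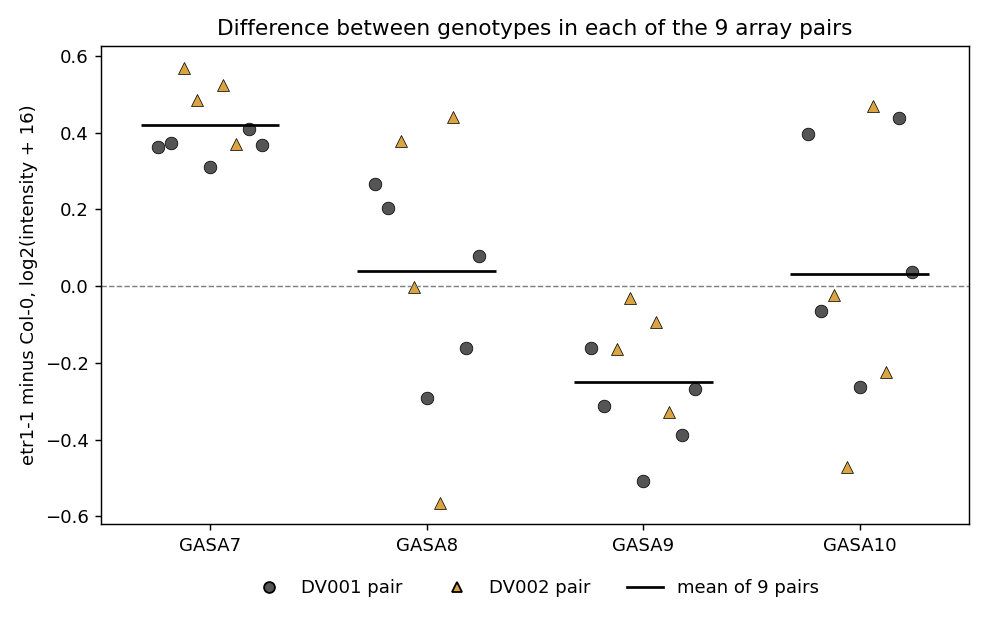
Log2 difference, etr1-1 minus Col-0, of log2(intensity + 16) (vertical axis) in each of the 9 array pairs for the 4 members. Grey circles are DV001 pairs, gold triangles DV002 pairs, and the line is the mean of 9 pairs. All 9 GASA7 pairs lie above 0 and all 9 GASA9 pairs below it, while GASA8 and GASA10 lie on both sides.

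GASA7 differences outside 1 h and after each spray at 1 h were of similar size and did not pass. On the 6 arrays outside 1 h, etr1-1 was higher by 0.37 ± 0.09 and the adjusted p was 0.0671, where 2.58% of probe sets passed. The 3 etr1-1 arrays there (205.1 to 215.8 units) did not overlap the 3 Col-0 arrays (154.6 to 164.4), a separation in that direction that 8.25% of probe sets showed. These arrays share none with the comparisons at 1 h.

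At 1 h after water the mean of GASA7 was 254 ± 15.1 units for etr1-1 and 181 ± 7.34 for Col-0 (SD, n = 3). The log2 difference was 0.46 ± 0.13 (SE, limma adjusted p = 0.375, or 0.0549 with replicate blocked). At 1 h after GA4 it stood at 247 ± 37.4 and 178 ± 19.0 units, a difference of 0.44 ± 0.13 (adjusted p = 0.298, or 0.0575 with replicate blocked). The 3 arrays of each genotype did not overlap after either spray. That separation, with etr1-1 above, held for 5.60% of probe sets after water and 5.99% after GA4, while 0.232% and 0.201% passed the adjusted threshold (1.41% and 1.88% with replicate blocked). GASA7 passed in neither single spray at 1 h.

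GASA9 was lower in etr1-1 in each pair, but its call depended on how the arrays were grouped in the fit. In Col-0 it read 610.4 units after water at 0 h, 706.7 after GA4 at 30 min and 683.6 after GA4 at 3 h. At 1 h in Col-0 the 3 replicates read 485.4, 356.4 and 798.4 units after water and 504.9, 410.4 and 763.3 after GA4. The third replicate, from DV001, was the highest after both sprays and the second the lowest.

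In etr1-1 GASA9 read 544.0 units after water at 0 h, 566.1 after GA4 at 30 min and 564.9 after GA4 at 3 h. At 1 h in etr1-1 the replicates read 431.6, 348.3 and 556.8 units after water and 471.9, 323.6 and 580.0 after GA4. The order of the replicates was the same as in Col-0, and over all 18 arrays the genotypes overlapped (323.6 to 580.0 against 356.4 to 798.4). The 9 arrays averaged 487 ± 98.9 units for etr1-1 and 591 ± 159 for Col-0 (SD).

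With the condition alone as a term the difference in GASA9 was -0.25 ± 0.15 (SE) on the log2 scale and did not pass (95% interval -0.56 to 0.06, adjusted p = 0.365). Leaving out 1 array at a time moved it between -0.33 (without the second Col-0 array after water at 1 h) and -0.16 (without the third). With the 9 array pairs as a block the same difference had an SE of 0.05 and an interval of -0.36 to -0.14, and it passed (adjusted p = 0.00434), where 14.4% of probe sets were called, 6.91% lower. With the prefix as a block the SE was 0.08 and the adjusted p 0.0472, where 11.5% were called, 5.52% lower. Within the pairs GASA9 was lower in etr1-1 in 9 of 9, by 0.03 to 0.51 on the log2 scale, as 3.82% of probe sets were.

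The residual spread of GASA9 fell with these terms. The residual SD of GASA9 on the log2 scale was 0.37 with condition and genotype as terms, 0.19 with the prefix added and 0.11 with the pairs as a block. For GASA7 the same values were 0.11, 0.12 and 0.06. For GASA8 they were 0.22, 0.23 and 0.23, and for GASA10 0.30, 0.25 and 0.24. It thus fell with these terms for GASA10 too, and did not fall for GASA8.

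Within DV001 the genotypes did not overlap for GASA9. Its 5 etr1-1 arrays read 544.0 to 580.0 units (mean 562 ± 13.2, SD) and its 5 Col-0 arrays 610.4 to 798.4 (712 ± 72.9), a separation in that direction seen in 2.29% of probe sets. The log2 difference there was -0.33 ± 0.06 (adjusted p = 0.00682, with 4.12% called lower). Within DV002 the 4 etr1-1 arrays (323.6 to 471.9 units) and the 4 Col-0 arrays (356.4 to 504.9) overlapped, and the difference was -0.15 ± 0.14 (adjusted p = 0.666, with 0.647% called lower). Whether the difference itself varied between the prefixes was not tested.

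The 6 arrays outside 1 h, all from DV001, gave a GASA9 difference of -0.25 ± 0.08 that did not pass (adjusted p = 0.171). Their 3 etr1-1 arrays all read below their 3 Col-0 arrays, as 6.51% of probe sets did. At 1 h the differences were -0.23 ± 0.30 after water and -0.27 ± 0.30 after GA4, with limma adjusted p-values of 1.00 and 0.911. Without the third Col-0 array of the same spray they were 0.07 and -0.03. With the replicate number as a block the SE fell to 0.10 for both, and neither passed (adjusted p = 0.401 and 0.225).

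GASA9 also separated the arrays at 1 h by replicate number, whatever the genotype or spray. The 4 arrays of replicate 1 read 431.6 to 504.9 units (473 ± 31.0, SD), those of replicate 2 read 323.6 to 410.4 (360 ± 36.6) and those of replicate 3 read 556.8 to 798.4 (675 ± 124). The 3 sets did not overlap, and the share of all probe sets that separate in this way was not counted. DV002 arrays were 1.60-fold lower than DV001 arrays at 1 h, by 0.67 ± 0.12 on the log2 scale (limma adjusted p = 0.00283), where 9.16% of probe sets were called lower. All 4 DV001 arrays read above all 8 DV002 arrays, as for 4.91% of probe sets.

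Within DV002 replicate 1 was above replicate 2 for GASA9 by 0.38 ± 0.09 (adjusted p = 0.0439, with 1.06% called higher). That call was lost when any 1 of the 8 arrays was left out (adjusted p = 0.0692 to 0.226). These 2 comparisons were added after seeing the data. The prefix and the replicate number moved together with the third replicate, so they cannot be told apart at 1 h.

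No other member passed in these 2 comparisons. GASA7 differed between DV002 and DV001 at 1 h by -0.03 ± 0.09 and between replicates 1 and 2 by 0.16 ± 0.10 (adjusted p = 0.826 and 0.509). GASA8 differed by -0.07 ± 0.14 and -0.22 ± 0.16 in the same 2 comparisons (adjusted p = 0.762 and 0.546). GASA10 was at -0.38 ± 0.13 in DV002 against DV001 and did not pass (adjusted p = 0.0623), although it did without the Col-0 array of replicate 2 after GA4 (-0.48, adjusted p = 0.00836). The GAPDH 3′ to 5′ log2 ratio ran from 0.188 to 0.524 in DV001 and from 0.261 to 1.16 in DV002. The actin log2 ratio ran from 1.42 to 2.70 and from 1.67 to 2.87, and the ubiquitin log2 ratio from 1.25 to 1.75 and from 1.18 to 1.90. The ranges of each control overlapped, and their part in the GASA9 difference between the prefixes was not tested. The green tissue marker LHCB4.1 read 3033.7 to 3671.1 units in DV001 and 2603.3 to 3530.1 in DV002 at 1 h, so those ranges overlapped as well.

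**Figure D3:**
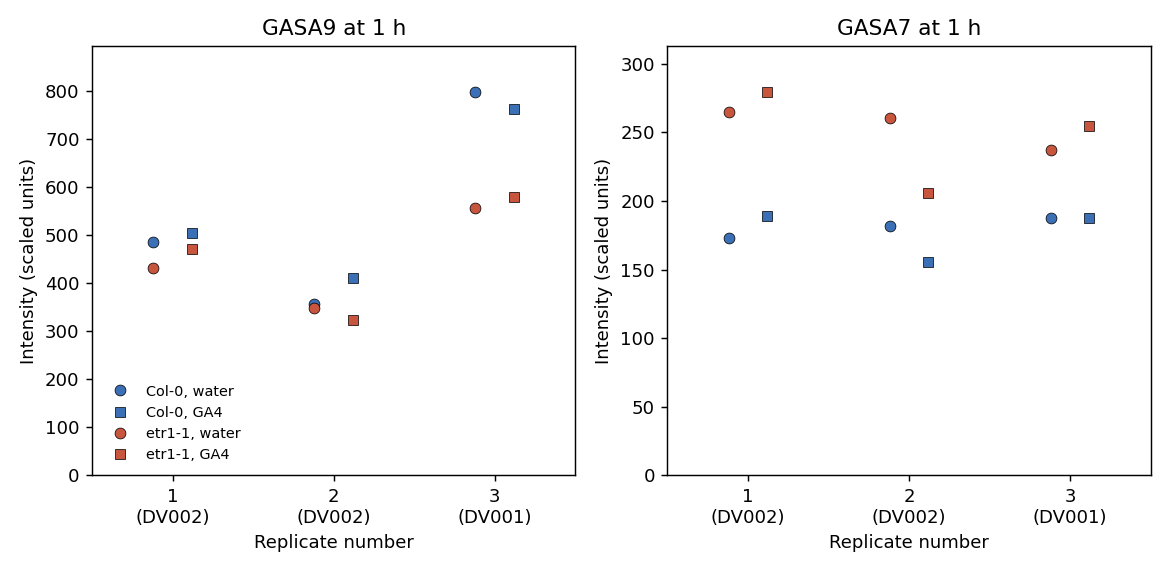
Intensity in scaled units (vertical axes, from 0) of GASA9 (left) and GASA7 (right) on the 12 arrays at 1 h, by replicate number. Points are single arrays, blue for Col-0, red for etr1-1, circles for water and squares for GA4. The GASA9 arrays fall into 3 ranges that do not overlap (replicate 1 at 431.6 to 504.9, replicate 2 at 323.6 to 410.4, replicate 3 at 556.8 to 798.4), while the GASA7 arrays divide by genotype.

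GASA8 and GASA10 showed no difference between the genotypes that passed. GASA8 read 14.5, 17.1 and 22.9 units in Col-0 and 20.7, 22.1 and 25.1 in etr1-1 at 0 h, 30 min and 3 h. At 1 h after water its replicates read 15.4, 27.5 and 26.6 units in Col-0 and 24.8, 27.4 and 18.8 in etr1-1. After GA4 at 1 h they read 25.1, 16.4 and 26.6 units in Col-0 and 11.8, 28.0 and 22.1 in etr1-1. The genotypes overlapped, with the lowest and the highest value of all 18 arrays both in etr1-1 after GA4 at 1 h.

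GASA8 was higher in etr1-1 in 5 of 9 pairs, and the log2 difference over the 18 arrays was 0.04 ± 0.10 (95% interval -0.17 to 0.25, adjusted p = 0.878). The interval leaves room for a change of up to about the size seen for GASA9. Its differences were 0.18 ± 0.13 outside 1 h, 0.03 ± 0.19 after water at 1 h and -0.09 ± 0.19 after GA4 at 1 h, none of which passed. At intensities this low the offset of 16 makes up much of the value, which narrows any fold.

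GASA10 read 29.8, 35.1 and 35.5 units in Col-0 and 44.3, 32.9 and 36.8 in etr1-1 at 0 h, 30 min and 3 h. At 1 h after water its replicates read 20.8, 33.2 and 44.7 units in Col-0 and 20.2, 19.5 and 34.6 in etr1-1. After GA4 at 1 h they read 18.7, 42.6 and 32.3 units in Col-0 and 32.0, 34.2 and 49.4 in etr1-1. The genotypes overlapped, and etr1-1 was higher in 4 of 9 pairs. Over the 18 arrays the difference was 0.03 ± 0.13 (95% interval -0.23 to 0.30, adjusted p = 0.919).

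The question that the GA4 spray puts to a family named for its gibberellin response is whether any member moved within 1 h. No member passed in either genotype, and neither did any other probe set in limma (0% for each genotype and for the mean of both). At an unadjusted p under 0.05 limma gave 97 probe sets for Col-0 (0.609%), 290 for etr1-1 (1.82%) and 253 for the mean of both (1.59%). With the replicate number as a block these were 322 (2.02%), 763 (4.79%) and 794 (4.99%), with 0 after adjustment. None of these shares exceeded the 0.05 that is due when no probe set differs. The medians over the 4 members were -0.02 in Col-0 and -0.01 in etr1-1, beside 0.01 and -5.08e-04 over all tested probe sets.

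In Col-0 GASA7 differed between GA4 and water by -0.03 ± 0.13 (SE), GASA8 by -0.01 ± 0.19, GASA9 by 0.06 ± 0.30 and GASA10 by -0.05 ± 0.23. In etr1-1 GASA7 differed by -0.05 ± 0.13, GASA8 by -0.13 ± 0.19 and GASA9 by 0.03 ± 0.30. Over both genotypes the 95% intervals were -0.23 to 0.15 for GASA7, -0.37 to 0.22 for GASA8, -0.41 to 0.50 for GASA9 and -0.16 to 0.53 for GASA10. With the replicate number as a block the GASA9 interval narrowed to -0.11 to 0.20. A mean change of 2-fold over both genotypes lay outside each of these intervals, on the scale with the offset.

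GASA10 in etr1-1 had the largest difference of the 4 members between the sprays. The GA4 array read above the water array of the same replicate number by 11.8, 14.7 and 14.8 units in etr1-1, where 12.4% of probe sets rose in all 3 pairs. In Col-0 the same pairs differed by -2.1, 9.4 and -12.4 units, with no common direction. The log2 difference in etr1-1 was 0.43 ± 0.23 (unadjusted p = 0.0842 in limma) and with the replicate block ± 0.15 (unadjusted p = 0.0153), and neither survived adjustment (adjusted p = 1.00 and 0.970). The sprayed groups overlapped, with the third water array (34.6 units) above the first and second GA4 arrays.

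The test of whether the GA4 response differed between the genotypes gave no call on the array either (0%), with 111 probe sets at an unadjusted p under 0.05 in limma and 335 with the replicate block. GASA10 had an interaction of 0.48 ± 0.32 (etr1-1 minus Col-0, adjusted p = 1.00). The other members lay closer to 0, at -0.02 ± 0.18 for GASA7, -0.12 ± 0.27 for GASA8 and -0.04 ± 0.42 for GASA9.

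**Figure D4:**
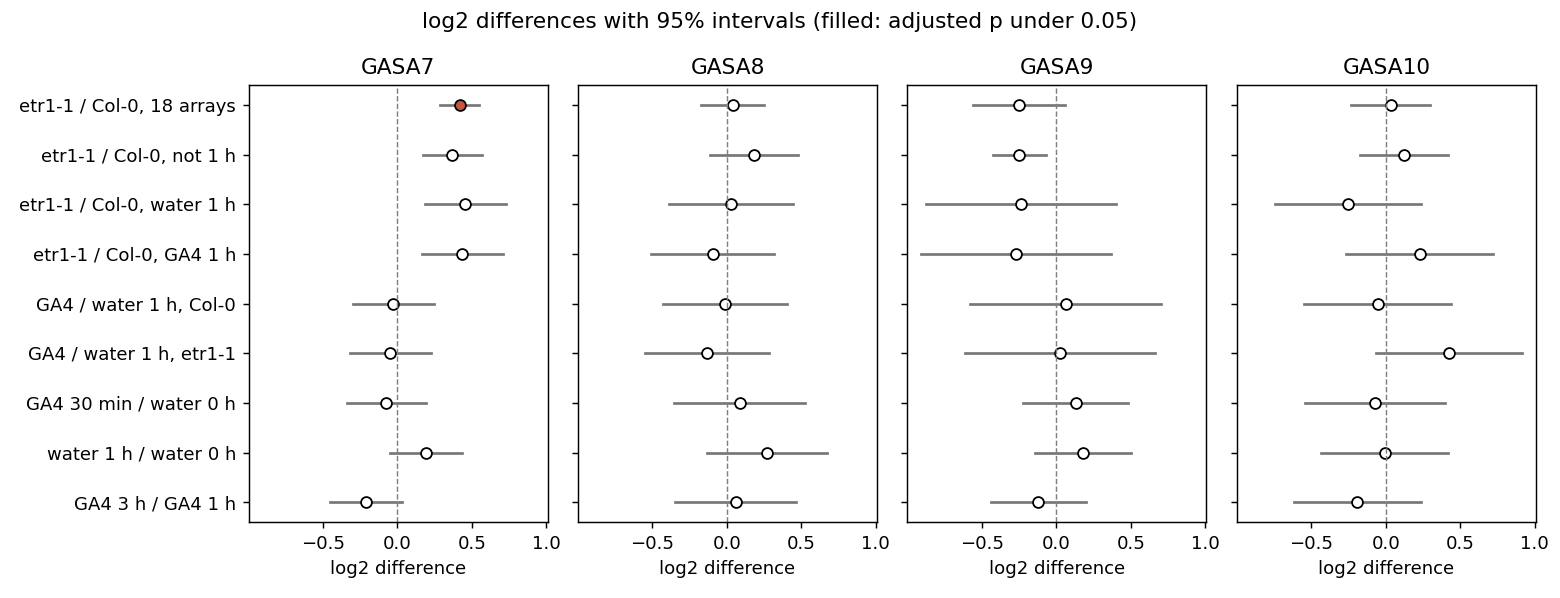
Log2 differences (horizontal axes, with 95% intervals) of the 4 members in 9 comparisons (rows, first group over second). Points filled in red passed an adjusted p of 0.05, and open points did not. GASA7 between the genotypes over the 18 arrays is the 1 filled point, at 0.42, and the fits with a block are not drawn.

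Across the time course each member was read on 1 array per genotype outside 1 h, so a step was tested over both genotypes with the prefix as a term. GASA7 had the same order of conditions by mean in both genotypes. It was lowest after GA4 at 30 min, then after GA4 at 3 h and after water at 0 h, then after GA4 at 1 h, and highest after water at 1 h. The means at 1 h pool both prefixes. Within DV001 at 1 h, etr1-1 read 236.9 units after water and 254.5 after GA4, against that order, and Col-0 read 187.8 and 187.7. None of the steps between conditions passed. The step from 0 h to 30 min after GA4 was -0.07 ± 0.13, that from 0 h to 1 h after water 0.19 ± 0.12 and that from 1 h to 3 h after GA4 -0.21 ± 0.12 (adjusted p = 0.911, 0.525 and 0.411).

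For GASA9 the order of the means was the reverse of that for GASA7 in both genotypes, highest after GA4 at 30 min and lowest after water at 1 h. That order rests on the low DV002 arrays at 1 h. Within DV001 the arrays at 1 h were the highest in Col-0 (798.4 and 763.3 units), while in etr1-1 the 5 arrays lay between 544.0 and 580.0. With the prefix as a term the 3 steps were 0.13 ± 0.17, 0.18 ± 0.15 and -0.12 ± 0.15. Without that term the step from 0 h to 1 h after water turned to -0.27 and that from 1 h to 3 h after GA4 to 0.33, and no setting gave a call.

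GASA8 had steps of 0.09 ± 0.21, 0.27 ± 0.19 and 0.06 ± 0.19, and GASA10 of -0.07 ± 0.22, -0.01 ± 0.20 and -0.19 ± 0.20, in the same order. Of the 4 members 0 passed in any step, where 2.88%, 1.39% and 2.66% of all probe sets did. In DV001 GASA10 differed in sign between the genotypes over 5 of 5 intervals read from single arrays, which share arrays with each other. The share of all probe sets that do so was not counted. An example is 0.41 in Col-0 and -0.25 in etr1-1 from 0 h to 1 h after water. The difference between the genotypes in that step, from a fit with 1 term per group that was added after seeing the data, was -0.65 ± 0.36 and did not pass (adjusted p = 1.00). That fit takes groups with 1 array to vary like the groups at 1 h, and 0 probe sets (0%) passed in any of its 3 steps (377, 430 and 468 at an unadjusted p under 0.05).

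The arrays outside 1 h carry replicate number 1 and the DV001 arrays at 1 h number 3, so time and replicate number cannot be told apart in these steps. GASA9 is the member that was called between replicate numbers at 1 h, as given above. GASA10 was not called there, but its means rose from 22.9 units in replicate 1 to 32.4 in replicate 2 and 40.25 in replicate 3.

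The genes through which gibberellin is perceived were set beside the members from a list of 17 signalling genes, of which 7 had a named probe set and all 7 were tested. They were the receptors GID1A, GID1B and GID1C, the F-box genes SLY1 and SNE, and the O-linked glycosyltransferase genes SPY and SEC. None passed in either direction between the genotypes, between GA4 and water, or in a time step. Between the prefixes at 1 h, 2 of the 7 were called higher in DV002, as 9.73% of probe sets were. These were SEC at 0.66 ± 0.12 and GID1B at 0.40 ± 0.10 (limma adjusted p = 0.00286 and 0.0137). Over the 18 arrays the differences were 0.10 ± 0.07 for SLY1, 0.11 ± 0.08 for SNE, 0.10 ± 0.09 for GID1A and -0.07 ± 0.07 for GID1C, with a list median of 0.05 beside 0.01 for all probe sets. The step to 30 min after GA4 was -0.52 ± 0.16 for GID1B and did not pass (adjusted p = 0.109). Of 25 gibberellin metabolism genes 0 had a named probe set in the annotation used, and they are not analysed. The array may still measure them with probe sets that this annotation does not list.

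The members showed no strong correlation with each other over the 18 arrays. The correlation of their log2 values over the 18 arrays was -0.33 between GASA7 and GASA9 and 0.37 between GASA9 and GASA10, and the other 4 pairs lay between -0.14 and 0.11. These are descriptions over arrays that share condition, prefix and genotype, and carry no test. GASA8 and GASA10 sit at the dim end of the tested probe sets, which limits what their correlations can show.

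The 3 named genes most like each member were found by Pearson correlation over the 18 arrays among 8727 candidates. For GASA7 they were AT2G34585 (r = 0.873), AT1G52820 (0.870) and AT1G62790 (0.854), with log2 differences between the genotypes of 0.22, 1.52 and 0.29. For GASA9 they were AT2G07741 (0.895), AT1G72480 (0.886) and AT1G33811 (0.886). Over the 12 arrays at 1 h alone these 3 correlated with GASA9 at 0.882, 0.948 and 0.882, ranks 27, 1 and 26 among the candidates. The GASA7 genes ranked 34, 33 and 27 at 1 h. For GASA8 the closest was BZIP17 (0.781), which encodes a membrane-bound transcription factor of the salt and endoplasmic reticulum stress response, followed by AT4G17580 (0.775) and AT4G15750 (0.761). For GASA10 they were AT5G25860 (0.803), AT4G27400 (0.801) and AT5G19440 (0.791). As the highest of many candidates these correlations are high by selection, and no test is given.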

How the data were processed

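The deposited table holds 1 intensity per probe set and array on a linear scale. The authors had scaled the arrays before deposit: in the deposited table the trimmed mean intensity lay between 100.007 and 100.008 on each array. The software that made them is not named in the labels or files. No further scaling was applied. Values were used as log2(value + 16). The 64 controls were dropped and probe sets below the 30th percentile of mean log2 value over the arrays of a fit were filtered out, which left 15922. Annotation named 1 gene for 13513 probe sets and several for 503, while 8730 were not listed in it.

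Fits used lmFit and eBayes with an intensity trend in limma 3.58.1 (R 4.3.3), with Benjamini-Hochberg adjustment over all tested probe sets. They were also run on simulated data with independent noise. Those data held no prefix or replicate effect, so they cannot check the fits against such effects. The genotype comparison had the condition as a term, comparisons at 1 h had 1 term per group over 12 arrays, and time steps had genotype, condition and prefix. The number of arrays limits the precision.

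Replicate numbers, taken from the labels, pair the arrays at 1 h. The 18 same-number pairs correlated at 0.13 to 0.70 in their deviations from group means. Among arrays of other groups, each of the 12 correlated best with one of its own number. The main fits leave this pairing out, so blocked values are printed where the call changes. The members, gene lists and tests were chosen with earlier results of these data known. The named genes are the 4 members, up to 4 genes of each list with the smallest p in a comparison, and the 3 genes most like each member. Alternatives tried were quantile normalization, an offset of 1, testing without the filter or the trend, blocking on replicate or prefix, 1 prefix alone, steps without the prefix term, and leaving out each array.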

Additional observations from a re-analysis of the deposited data

How the results depend on the processing

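The count of members called between the genotypes over the 18 arrays was 1. It was 2 (GASA7 and GASA9) with the replicate block of the 9 array pairs, with the prefix as a block and in DV001 alone, where 14.4%, 11.5% and 8.31% of all tested probe sets were called, and 0 in DV002 alone (1.11%). Without any 1 array it was 1. In the other comparisons of genotype, spray and time 0 members were called under each alternative that was run, blocks included. Between the prefixes, a comparison added later, 1 member was called (GASA9), and 1 to 2 without 1 array. Between replicates 1 and 2 the count was 1, and 0 without any 1 array. An offset of 1, quantile normalization, no filter and no variance trend moved no call between the genotypes or the sprays. Without the filter or without the variance trend GASA9 no longer passed between replicates 1 and 2 at 1 h (adjusted p = 0.0998 and 0.0688). GASA8 fell under the filter in 1 of the 3 fits outside 1 h that left out a condition, which leaves no value there.

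The values that changed sign were all of differences that did not pass. With quantile normalization GASA8 came to -0.0077 between the genotypes over the 18 arrays and to -0.0172 at 1 h after water, and in the added step to 30 min (etr1-1 minus Col-0) GASA7 came to -0.0318 and GASA8 to 0.0214. In DV002 alone GASA10 was -0.0624 between the genotypes and 0.0837 between the sprays in Col-0. In DV001 alone GASA10 was 0.0767 from 0 h to 1 h after water and GASA8 -0.0109 from 1 h to 3 h after GA4. With no prefix term GASA9 was -0.27 from 0 h to 1 h after water and 0.33 from 1 h to 3 h after GA4, where GASA10 was 0.0629. The cause was not tested.

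Leaving out 1 array at a time (1 condition outside 1 h) also crossed 0 as follows. Between the genotypes GASA8 ranged from -0.00384 to 0.10 and GASA10 from -0.0399 to 0.10 over the 18 arrays, and GASA10 from -0.0138 to 0.22 outside 1 h. At 1 h after water GASA8 ranged from -0.12 to 0.12 and GASA9 from -0.49 to 0.0704, the latter without the third Col-0 replicate, and after GA4 GASA8 from -0.24 to 0.0917. Between GA4 and water in Col-0 the ranges were -0.0739 to 0.0554 for GASA7, -0.16 to 0.11 for GASA8, -0.20 to 0.37 for GASA9 and -0.24 to 0.15 for GASA10. In etr1-1 they were -0.14 to 0.0673 for GASA7, -0.28 to 0.0519 for GASA8 and -0.16 to 0.25 for GASA9, and over both -0.0838 to 0.0193, -0.15 to 0.0198 and -0.0853 to 0.20. The interaction ranged from -0.11 to 0.0961 for GASA7, -0.27 to 0.0641 for GASA8 and -0.34 to 0.22 for GASA9. In the step to 30 min GASA8 ranged from -0.0424 to 0.21 and GASA10 from -0.28 to 0.13, in the step to 1 h after water GASA10 from -0.21 to 0.20, and in the step to 3 h GASA8 from -0.00553 to 0.15. Between the prefixes GASA7 ranged from -0.0902 to 0.0118 and GASA8 from -0.18 to 4.21e-04. Other differences between the genotypes kept their sign but moved by over 1.5 times: GASA9 ranged from -0.33 to -0.16 over the 18 arrays and from -0.46 to -0.0280 at 1 h after GA4, and GASA10 from -0.44 to -0.0815 after water and from 0.0219 to 0.40 after GA4. GASA8 and GASA10 lay near the level of the filter on low values.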
